A study of Mus musculus with 8 samples.

Results

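Wnt proteins are secreted, lipid-modified signals that bind Frizzled receptors together with the co-receptors LRP5 or LRP6. Binding halts a complex of Axin, APC and kinases that otherwise marks beta-catenin for destruction, and beta-catenin then joins TCF/LEF proteins at DNA. Secreted inhibitors of the Dkk and Sfrp families limit the signal, and R-spondins strengthen it. In muscle the pathway is known for its roles in the formation of myogenic cells in the embryo and in the passage of myoblasts from division to differentiation.

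The genes of this pathway were taken by symbol: the Wnt, Fzd, Sfrp, Dkk, Rspo and Tcf7 families with *Axin1*, *Axin2*, *Lrp5*, *Lrp6*, *Lef1*, *Ctnnb1*, *Apc* and *Frzb*. The rule found 53 genes among the 27179 rows of the expression table, namely 19 ligands, 10 receptors, 2 co-receptors, 4 R-spondins, 9 secreted inhibitors, 4 genes of the destruction complex and beta-catenin, 4 TCF/LEF factors and the antisense gene *Fzd10os*. Their RNA levels and their m6A peaks were compared between growing and differentiating C2C12 myoblasts, to describe which parts of the pathway differ between the states and which of its transcripts carry the modification. m6A is a methyl group on adenosine within mRNA.

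C2C12 is an immortalized line of mouse myoblasts, and all libraries came from this unmodified line on collagen-coated dishes. Growth medium (GM) libraries came from cells at 50% confluence with 10% fetal bovine serum. Differentiation medium (3d DM) libraries came from cells that had passed 90% confluence and then spent 3 days with 2% horse serum. Each state had 2 input libraries, which measure RNA, and 2 libraries of fragments precipitated with an antibody against m6A. Nothing in the labels says that the 2 libraries of a state came from separate cultures, so p-values measure only the spread between these libraries.

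The state markers followed the labels. *Myh3*, the embryonic myosin heavy chain, was at 910 and 274 in GM and at 43166 and 46959 in 3d DM, and *Mki67*, a gene of dividing cells, was at 3055 and 3666 against 575 and 691. GM replicate 1 held more RNA of differentiation genes than GM replicate 2, with *Myog* at 859 and 221, and more of *Dcn*, a fibroblast gene, at 366 and 17.1. Of 9 markers of other cell types, 8 stayed under 25 in every library and 3 were listed at 0 in all, while *Krt14* ranged from 69.5 to 209. Among the 4 fibroblast markers, *Dcn* was at 527 and 622 in 3d DM. *Pdgfra* did not follow it between the states, at 82.7 and 36.2 in GM and at 88.3 and 58.8 in 3d DM. *Lum* was at most 2.82 and *Thy1* was listed at 0. The part of these differences in the results below was not tested. Cultures of this kind mix cycling and fusing cells, and fewer cells of a type cannot be told apart from less RNA per cell.

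RNA values are the deposited normalized values divided by 1 factor per library. The deposited columns placed the median gene 0.22 higher in GM on the log2 scale, and a single entry took between 24.4% and 41.3% of a column's total. Genes entered the test once 2 or more of the 4 libraries held at least 2 cpm, that is a deposited value of 25.1 or higher before the division. The values given here are after the division, so single values can lie on the other side of this limit. Of the 53 Wnt genes, 23 passed, 17 stayed below, and 13 were listed at 0 in every library. The value reached by a gene below the filter was at most 54.6 (*Fzd9* in 3d DM replicate 2). Those that passed comprised 5 of 19 ligands, 6 of 10 receptors, 2 of 2 co-receptors, 2 of 9 secreted inhibitors, 4 of 4 genes of the destruction complex and beta-catenin, and 4 of 4 TCF/LEF factors. No R-spondin passed.

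Myoblasts in 3d DM held more RNA of the ligands *Wnt9a* and *Wnt10a*, of the receptors *Fzd1*, *Fzd2* and *Fzd7* and of *Axin2*, and less of the inhibitor *Dkk2* and the ligand *Wnt7b*. With limma on log2(value + 1) and an adjusted p under 0.05, 6 of the 23 tested genes were higher in 3d DM, where the share over all 11406 tested genes was 12.0%. In the other direction, 2 were lower in 3d DM, with 11.2% over all tested genes. The remaining 15 were not called. In both directions together 23.2% of all tested genes were called. The median log2 difference, 3d DM minus GM, was 0.42 over the 23 Wnt genes and 0.003 over all tested genes. *Axin2*, *Wnt7b*, *Dkk2* and *Dkk3* passed the filter only through the state in which they were higher.

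**Figure D1:**
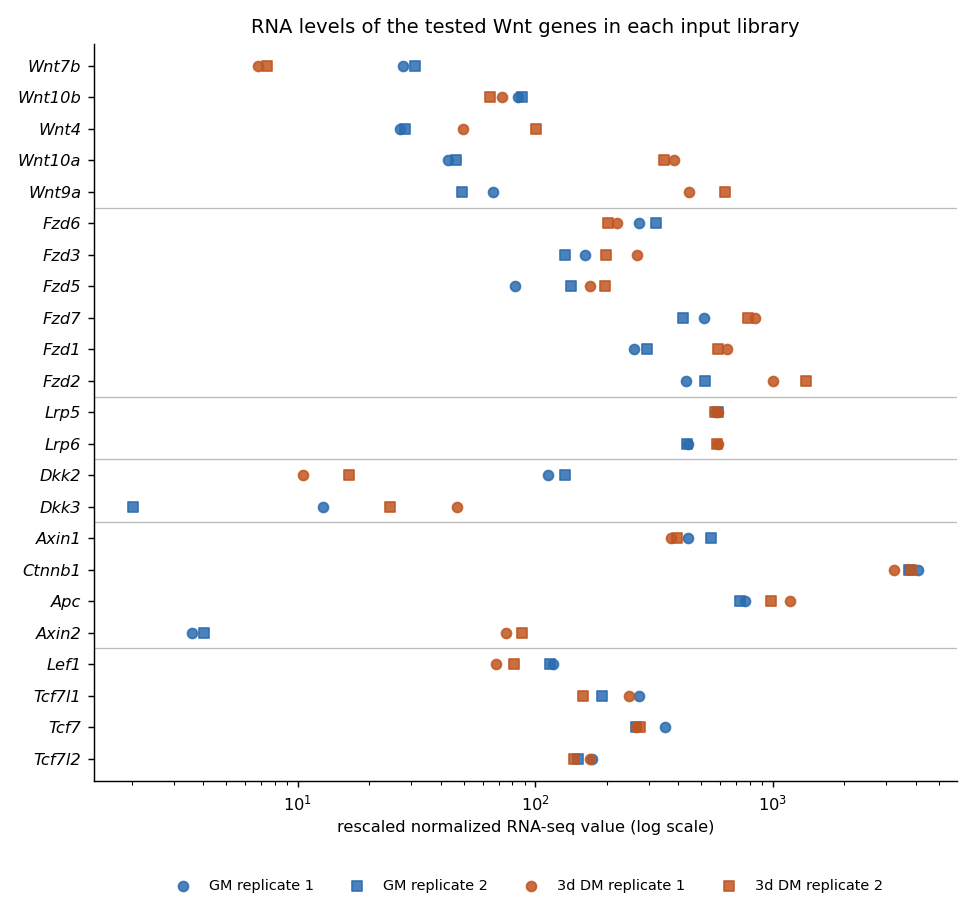
Rescaled normalized RNA-seq value (log axis) of each of the 23 tested Wnt genes in the 2 GM and 2 3d DM input libraries, grouped from top to bottom into ligands, receptors, co-receptors, secreted inhibitors, destruction complex with beta-catenin, and TCF/LEF factors. Each point is 1 library. The GM and 3d DM points of *Axin2*, *Wnt9a*, *Wnt10a* and *Dkk2* lie far apart, while those of *Lrp5*, *Ctnnb1* and *Tcf7l2* overlap.

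Among the ligands, *Wnt9a* (chr11:59306928-59333552, plus strand, mm10) was at 66.4 and 49.3 in GM replicates 1 and 2 and at 442 and 629 in 3d DM replicates 1 and 2. Both 3d DM libraries lay far above both GM libraries, and the means were 57.8 ± 12.1 and 536 ± 132 (SD, n = 2). The log2 difference was 3.18 with a standard error of 0.28 (adjusted p = 0.00248 from limma), a 9.26-fold rise.

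*Wnt10a* (chr1:74791516-74804179, plus strand) was at 43.0 and 46.2 in GM and at 383 and 349 in 3d DM. The replicates of each state lay close together and the states did not overlap. Its log2 difference was 3.01 with a standard error of 0.23 (adjusted p = 0.00172 from limma), an 8.20-fold rise.

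The third called ligand, *Wnt7b* (chr15:85535437-85582473, minus strand), went the other way, from 27.7 and 31.2 in GM to 6.78 and 7.43 in 3d DM. It fell by 1.91 on the log2 scale, with a standard error of 0.46 (adjusted p = 0.0342 from limma). The call was lost without GM replicate 2 and without either 3d DM library, with an adjusted p of up to 0.154 over the alternatives.

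*Wnt4* was at 26.9 and 28.2 in GM and at 49.5 and 101 in 3d DM. The states did not overlap, but the 3d DM libraries lay far apart, and the log2 difference of 1.33 ± 0.43 (SE) was not called (adjusted p = 0.0755 from limma). *Wnt10b* was at 84.2 and 87.5 in GM and at 72.6 and 64.5 in 3d DM, which gave a log2 difference of -0.32 ± 0.26 that was not called either (adjusted p = 0.414 from limma).

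Per kilobase of exon, the ligands stood in another order in each state. In GM the mean value per kb was 25.2 for *Wnt10b*, 18.1 for *Wnt10a*, 17.4 for *Wnt9a*, 6.56 for *Wnt4* and 6.01 for *Wnt7b*. In 3d DM it was 161 for *Wnt9a*, 148 for *Wnt10a*, 20.1 for *Wnt10b*, 17.9 for *Wnt4* and 1.45 for *Wnt7b*. Ligands were not tested against each other.

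The other 14 ligands stayed under the filter, and 7 of them were listed at 0 in every library. In this family 4 gene pairs lie side by side in the genome, and in each pair at most 1 gene passed the filter. *Wnt10a* lies 6.19 kb from *Wnt6*, which was at 0.89 and 1.01 in GM and at 3.74 and 6.89 in 3d DM. *Wnt9a* lies 16.2 kb from *Wnt3a*, which was listed at 0 in all 4 libraries. *Wnt10b* lies 11.7 kb from *Wnt1*, which was listed at 0 in both GM libraries and was at 0.14 and 2.11 in 3d DM. *Wnt3* and *Wnt9b*, 24.3 kb apart, were both under the filter. The large values of *Wnt9a* and *Wnt10a* in 3d DM thus stood beside neighbours of the same family with values near 0.

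Of the 6 tested receptors, 3 were called higher in 3d DM after rescaling, with 12.0% over all tested genes. Frizzled receptors are multi-pass membrane proteins with an extracellular cysteine-rich domain that holds the Wnt. *Fzd2* (chr11:102604396-102608058, plus strand) was at 429 and 519 in GM and at 1000 and 1375 in 3d DM. Its log2 difference was 1.31 ± 0.22 (SE; adjusted p = 0.0121 from limma).

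*Fzd1* (chr5:4753839-4758035, minus strand) was at 259 and 296 in GM and at 639 and 586 in 3d DM, which gave a log2 difference of 1.14 ± 0.18 (SE; adjusted p = 0.0101 from limma). *Fzd7* (chr1:59482424-59486955, plus strand) was at 512 and 419 in GM and at 840 and 783 in 3d DM, which gave a log2 difference of 0.81 ± 0.18 (SE; adjusted p = 0.029 from limma). In all 3 receptors both 3d DM libraries lay above both GM libraries, but the calls depended on the scaling. With the values as deposited, the log2 differences were 1.08 for *Fzd2*, 0.91 for *Fzd1* and 0.58 for *Fzd7*, with adjusted p of 0.0675, 0.168 and 0.446 from limma, and none was called. Without either 3d DM library the 3 calls were lost too.

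The 3 other tested receptors were not called. *Fzd3* was at 161 and 133 in GM and at 268 and 198 in 3d DM (log2 difference 0.65, adjusted p = 0.117 from limma). *Fzd5* was at 82.2 and 142 in GM and at 169 and 196 in 3d DM (0.75, adjusted p = 0.147). *Fzd6* was at 272 and 321 in GM and at 220 and 202 in 3d DM (-0.49, adjusted p = 0.138). In each of these receptors the states did not overlap, which held for 18 of the 23 tested Wnt genes and for 67.1% of all tested genes.

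The co-receptors stayed closer. *Lrp5* was at 575 and 587 in GM and at 586 and 571 in 3d DM, with a log2 difference of -0.01 ± 0.16 (SE). *Lrp6* was at 439 and 434 in GM and at 585 and 580 in 3d DM, with a log2 difference of 0.42 ± 0.16 (SE; adjusted p = 0.124 from limma), and replicates of a state lay within 5 units of each other.

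*Dkk2* (chr3:132085292-132180304, plus strand) encodes a secreted protein that binds LRP5 and LRP6. Its RNA was at 113 and 134 in GM and at 10.5 and 16.4 in 3d DM, with no overlap. It fell by 3.13 on the log2 scale, with a standard error of 0.37 (adjusted p = 0.00475 from limma), and was 9.15-fold higher in GM.

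*Dkk3*, a divergent member of the same family, was at 12.7 and 2.03 in GM and at 46.7 and 24.3 in 3d DM. The replicates of each state differed widely, and the log2 difference of 2.43 ± 0.84 (SE) was not called (adjusted p = 0.089 from limma). With the values as deposited it was called (adjusted p = 0.0162 from limma). The other 7 secreted inhibitors were under the filter. Among them *Sfrp2*, which binds Wnt proteins, was at 1.67 and 10.0 in GM and at 31.9 and 38.5 in 3d DM, and *Sfrp1* was at 10.7 and 18.1 in GM and at 16.1 and 33.5 in 3d DM.

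*Axin2* (chr11:108920349-108950783, plus strand) encodes a scaffold of the destruction complex and is itself a well-known target gene of beta-catenin. Its RNA was at 3.57 and 4.02 in GM and at 74.9 and 87.7 in 3d DM. Both 3d DM libraries lay far above both GM libraries, and the log2 difference was 4.10 ± 0.43 (SE; adjusted p = 0.00349 from limma). The GM values are low, and low values of a library also depended on its replicate, so their closeness is no independent measure of spread.

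*Apc* and *Axin1* were not called. *Axin1*, the related scaffold, was at 439 and 547 in GM and at 374 and 396 in 3d DM (log2 difference -0.35, adjusted p = 0.241 from limma). *Apc*, which binds both Axin and beta-catenin, was at 763 and 726 in GM and at 1182 and 978 in 3d DM (0.53, adjusted p = 0.0829).

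*Ctnnb1*, beta-catenin itself, was at 4088 and 3748 in GM and at 3227 and 3814 in 3d DM. The states overlapped, and the log2 difference was -0.16 ± 0.19 (SE; adjusted p = 0.574 from limma). It had the highest value per kb of exon of the tested Wnt genes, 755 in GM and 678 in 3d DM, followed in 3d DM by *Fzd2* at 324 and *Fzd7* at 179. beta-Catenin is also a structural part of cell junctions and is controlled largely through its protein, which was not measured here.

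None of the 4 TCF/LEF genes was called. *Lef1* was at 118 and 116 in GM and at 68.3 and 80.9 in 3d DM, which gave a log2 difference of -0.65 ± 0.25 (SE; adjusted p = 0.121 from limma) without overlap of the states. *Tcf7* was at 352 and 265 in GM and at 265 and 275 in 3d DM, *Tcf7l1* at 274 and 190 against 248 and 158, and *Tcf7l2* at 173 and 152 against 170 and 145. In these 3 genes the states overlapped, and their log2 differences lay between -0.20 and -0.05.

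**Figure D2:**
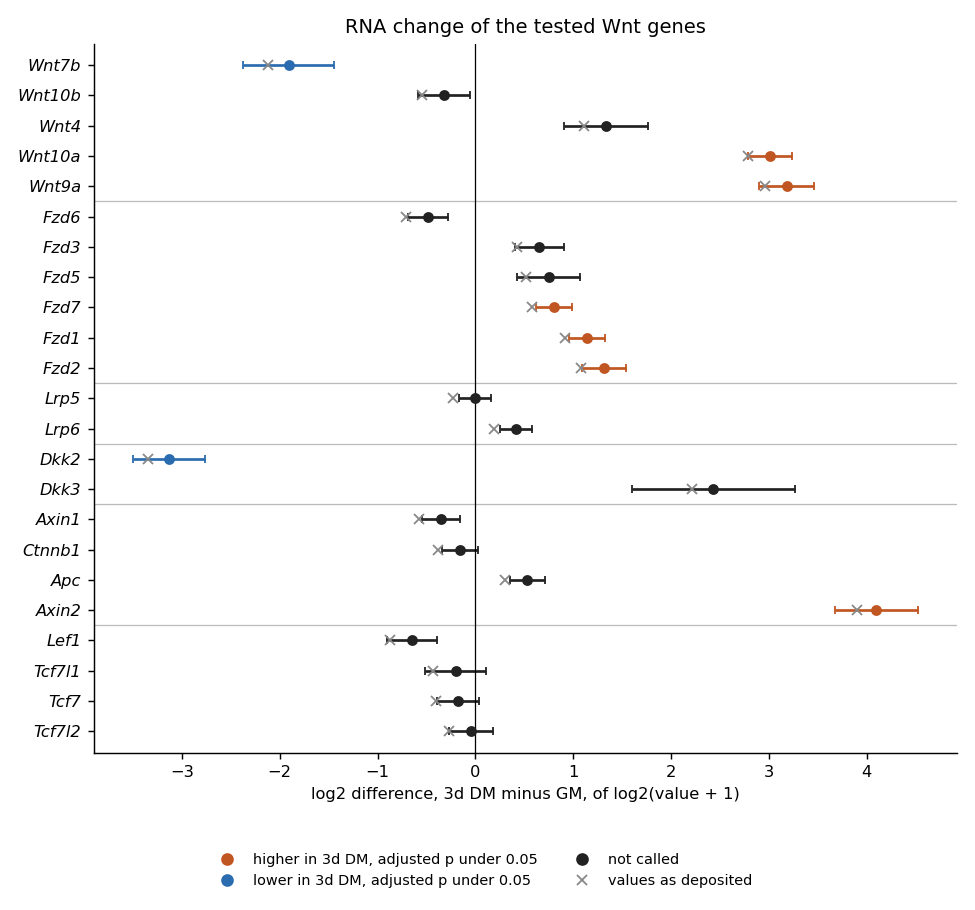
Log2 difference of RNA (3d DM minus GM, of log2(value + 1)) of the 23 tested Wnt genes, in the order of the plot of RNA levels. Points are the limma estimates from 2 libraries a state after rescaling, bars are 1 standard error, and crosses are the estimates from the values as deposited, which lie about 0.23 further toward GM.

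*Wnt9a* and *Wnt10a* kept their calls in 12 of 12 alternatives, and *Axin2* and *Dkk2* in all 11 in which they were tested. The filter of 2 cpm in 3 libraries left *Axin2* and *Dkk2* out. Both had passed the main filter only through the state in which they were higher, and the 11 alternatives do not check that selection. A fit that leaves 1 library in a state takes its spread from the other state's pair, so the counts depend on that pair's spread. Among the GM libraries, replicate 1 moved the counts most. Without it, 10 Wnt genes were higher and 4 were lower in 3d DM, and without GM replicate 2 the counts were 8 and 1. Without 3d DM replicate 1 or replicate 2 they were 3 and 1. The calls over all genes moved with them, from 2646 to 5213 and 3680 without GM replicates 1 and 2 and to 610 and 729 without 3d DM replicates 1 and 2.

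The wider pathway was described with a list of 60 partners that secrete, bind or relay Wnt signals or are known targets. The list was chosen with earlier results of these data known, so its counts are no independent test against the shares over all genes. All 60 were in the table and 43 passed the filter. Of these, 11 were higher in 3d DM (*Fst*, *Porcn*, *Daam2*, *Ccn5*, *Tle4*, *Dvl3*, *Kremen1*, *Ccn4*, *Btrc*, *Csnk1a1* and *Tnks*), against 12.0% of all tested genes. *Ccnd1* was the 1 partner that was lower, against 11.2%. The other 31 were not called, and the median log2 difference of the 43 was 0.23. Among the called partners, *Ccn5* and *Tle4* passed the filter only through 3d DM, where they were higher.

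*Porcn* encodes the enzyme that attaches the lipid that Wnt proteins need for secretion. It was at 88.8 and 62.3 in GM and at 2040 and 1382 in 3d DM, which gave a log2 difference of 4.48 ± 0.28 (SE; adjusted p = 0.00129 from limma). *Wls*, which carries the finished ligand to the cell surface, was at 2672 and 2343 in GM and at 3083 and 2837 in 3d DM and was not called.

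*Fst*, follistatin, an extracellular antagonist of activins and myostatin, was at 33.9 and 63.3 in GM and at 1881 and 2080 in 3d DM, which gave a log2 difference of 5.39 ± 0.32 (SE; adjusted p = 0.0012 from limma). *Daam2*, a formin that binds Dishevelled, was at 205 and 83.5 in GM and at 1290 and 1182 in 3d DM (log2 difference 3.23). Its higher GM value was in replicate 1. *Ccn5* and *Ccn4*, secreted matrix-associated proteins, differed by 2.73 and 0.92, and *Tle4*, a corepressor that binds TCF proteins, by 1.88.

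Smaller rises were called in single genes of the receptor and of the destruction complex. Related genes were not called, namely *Dvl1*, *Dvl2*, *Gsk3a*, *Gsk3b*, *Csnk1d*, *Csnk1e*, *Tnks2* and *Apc2*. Their log2 differences lay between -0.98 (*Apc2*) and 0.43 (*Dvl1*). In the called genes the log2 differences were 0.98 for *Dvl3*, a Dishevelled protein that relays the signal from Frizzled, and 0.97 for *Kremen1*, a membrane protein that binds Dkk proteins. They were 0.89 for *Btrc*, which recognises phosphorylated beta-catenin, 0.77 for *Csnk1a1*, the kinase that primes it, and 0.70 for *Tnks*, which modifies Axin. These 5 and *Ccn4* were not called with the values as deposited. Without either 3d DM library these 6, *Ccn5* and *Tle4* lost their calls, while *Fst*, *Porcn*, *Daam2* and *Ccnd1* were called in 12 of 12 alternatives.

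*Ccnd1*, cyclin D1, was at 2040 and 4045 in GM and at 230 and 261 in 3d DM. It fell by 3.55 on the log2 scale (adjusted p = 0.00294 from limma), with the lower GM value in replicate 1. *Myc* was at 304 and 957 in GM and at 219 and 250 in 3d DM. It was not called (adjusted p = 0.147 from limma), but was with the values as deposited (adjusted p = 0.0126 from limma).

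**Figure D3:**
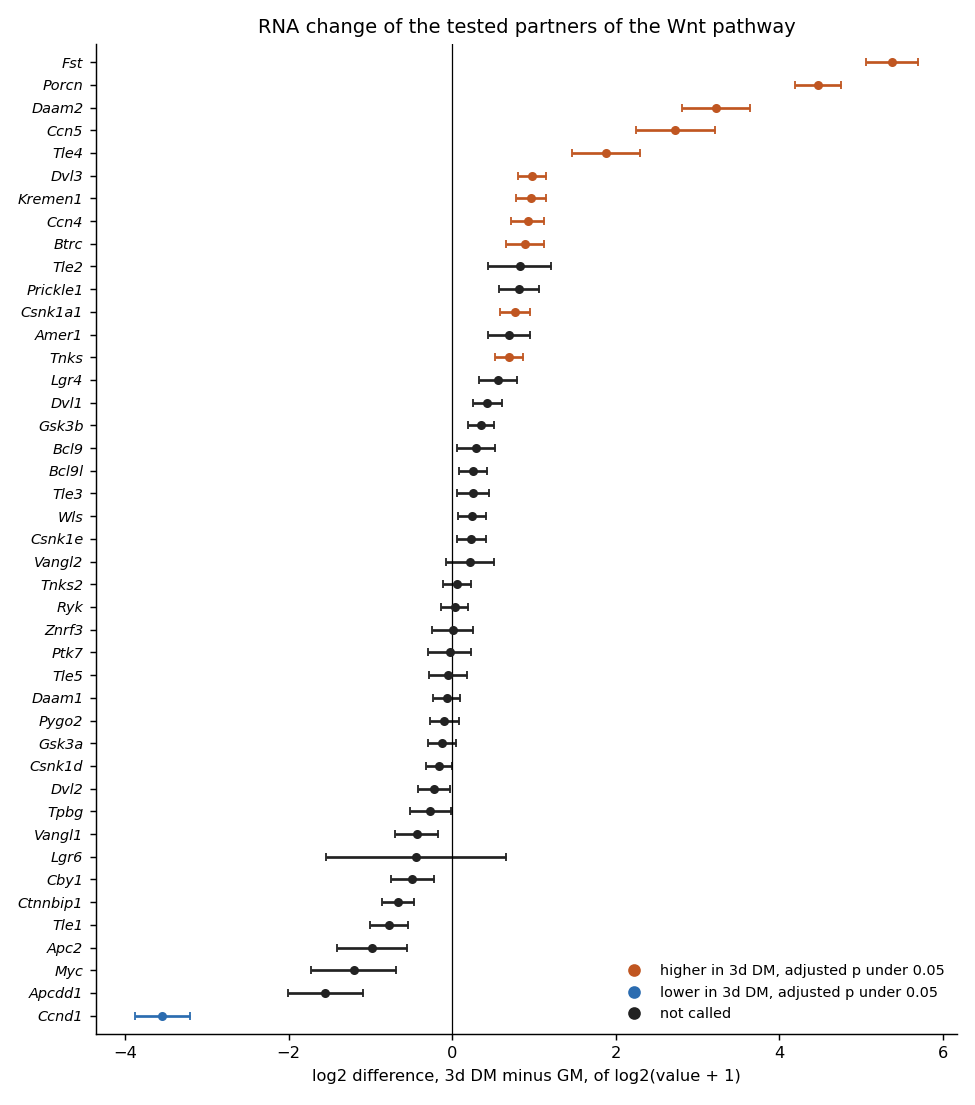
Log2 difference of RNA (3d DM minus GM, of log2(value + 1)) of the 43 tested pathway partners, ordered by size. Points are limma estimates from 2 libraries a state and bars are 1 standard error. *Fst*, *Porcn* and *Daam2* stand at the upper end and *Ccnd1* at the lower.

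m6A peaks are stretches of transcript where precipitated RNA exceeded input RNA. Each of the 4 deposited lists was called on 1 precipitated library against its own input, and it gives the fold enrichment of each peak. Of the 53 Wnt genes, 23 had a peak in at least 1 list. Of the 23 tested in the RNA-seq, 20 had one, with 76.2% over all tested genes. In all 4 lists a peak was found on 11 Wnt genes (*Apc*, *Axin1*, *Ctnnb1*, *Fzd1*, *Fzd2*, *Fzd5*, *Fzd7*, *Lrp5*, *Lrp6*, *Tcf7l2* and *Wnt10a*), 47.8% of those tested with 42.6% over all tested genes.

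*Dkk2* was the 1 Wnt gene with a peak in both GM lists and in no 3d DM list, a pattern of 2.67% of all tested genes. No Wnt gene had a peak in both 3d DM lists and in no GM list, a pattern of 1.74%. These patterns are counted by gene, not by peak. Single peaks called in both GM lists only also lay on *Apc*, *Fzd2*, *Tcf7* and *Tcf7l2*, which had other peaks in 3d DM. A *Fzd2* peak in the 3′ UTR was called in both 3d DM lists only. The share of such single peaks over all genes was not computed. Over both GM lists together, the *Dkk2* peak spanned the stop codon and the start of the 3′ UTR (chr3:132178004-132178392). In GM replicate 2 it covered the stop codon, with a fold enrichment of 9.39. In GM replicate 1 it began just past the stop codon, with a fold enrichment of 3.72. *Dkk2* RNA was also higher in GM, at 113 and 134 against 10.5 and 16.4, and the part of the RNA level in the calling of this peak was not tested.

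A peak in 1 list alone was held by 7 genes. *Axin2*, *Fzd3*, *Fzd8*, *Fzd9*, *Sfrp2* and *Wnt9a* had theirs in 3d DM replicate 1, with fold enrichments of 7.41, 7.94, 12.7, 4.50, 9.52 and, for the higher of 2 peaks, 3.17. *Lef1* had its peak in GM replicate 1, at 3.94. *Wnt9a* RNA was at 629 in 3d DM replicate 2, whose list held no *Wnt9a* peak. That list was the shortest, with 9376 distinct peaks over all genes against 13134 in 3d DM replicate 1, 11101 in GM replicate 2 and 13273 in GM replicate 1. Without 3d DM replicate 2, the Wnt genes with a peak in 3d DM and none in GM numbered 6 in place of 0, of which 3 were among the tested genes. The share over all tested genes rose as well, from 1.74% to 4.82%. Without 3d DM replicate 1, those with a peak in both GM lists and none in 3d DM numbered 4 in place of 1, while the share over all tested genes rose from 2.67% to 10.1%.

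The other Wnt genes with peaks held them in 3 lists. *Fzd6*, *Tcf7* and *Tcf7l1* had none in 3d DM replicate 2, and *Wnt4* had none in GM replicate 2. On *Tcf7l1* the highest fold enrichment of a list was 8.97 and 4.30 for the GM replicates and 4.23 for 3d DM replicate 1. *Tcf7l2* had peaks in all lists but not at a shared place. Its 5′ UTR peak was called in 3 lists, with a fold enrichment of 2.73 for GM replicate 1 but of 26.5 and 11.7 for the 3d DM replicates.

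After lines of the same gene that share at least 1 bp were joined, the Wnt genes held 68 distinct peaks, of which 31 were in 1 list and 13 were in all 4. Over all genes 6055 of 19683 distinct peaks were in all 4 lists. Of the 13, 6 lay in coding sequence, 6 reached from coding sequence over the stop codon into the 3′ UTR, and the *Wnt10a* peak lay in the 3′ UTR. Over all genes these classes held 26.4%, 45.7% and 18.5% of the peaks in all 4 lists. *Apc*, with a long coding exon, held 4 of the 13, so the peaks of coding sequence came from 4 genes.

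**Figure D4:**
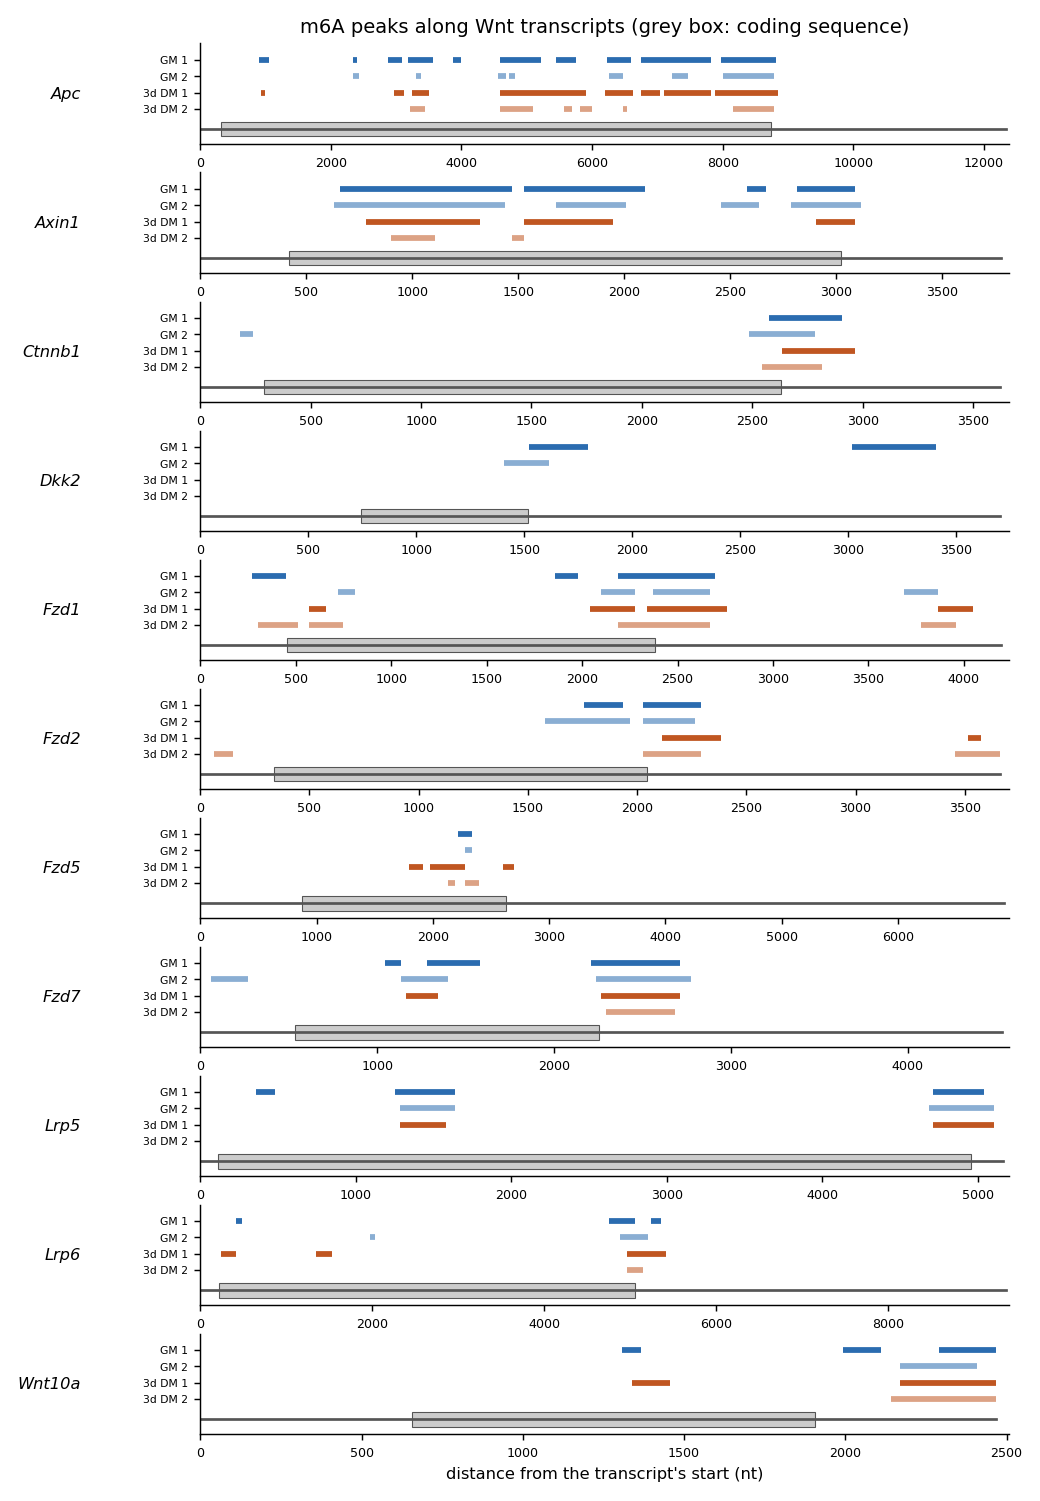
Peaks along 1 transcript each of 10 Wnt genes with a peak in all 4 lists and of *Dkk2*. The horizontal axis is the distance from the transcript's start in nucleotides, the grey box is the coding sequence, and each bar is a peak in 1 list (GM in blue, 3d DM in orange). Bars of all 4 lists stack at or just past the end of the coding sequence in *Ctnnb1*, *Fzd1*, *Fzd2* and *Fzd7*, and *Dkk2* has bars in GM only. *Tcf7l2* is not drawn, and the *Lrp5* peak of 3d DM replicate 2 is on another transcript.

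m6A is known to lie mostly in the DRACH sequence, 18 words of 5 bases in which the first base is A, G or T, the second A or G, the third A, the fourth C and the last A, C or T. In the central 100 bases of the joined peaks, on the transcript's strand, at least 1 of these words was found in 12 of the 13 Wnt peaks (92.3%) and in 90.5% of the 6042 peaks of all genes that could be read. Words can overlap, and a match is no measured site, since peaks are wider than a site. The lines below show 30 bases of the GRCm38 (mm10) genome around the word nearest the middle of the bases that all 4 lists shared. They come from the 5 genes with the highest mean fold enrichment other than *Apc*, whose sequence is not shown here, and *Fzd5*, which is among the 5, has no line. They are written 5′ to 3′ on the transcript's strand with the word in capitals.
Axin1, coding sequence, chr17:26143243-26143272, plus strand: ttgaccaggcacAGACAgaaatccagtcca
Fzd7, 3′ UTR side of the peak, chr1:59484903-59484932, plus strand: gacttctggctaAGACTtgcaggacgatgc
Wnt10a, 3′ UTR peak, chr1:74804054-74804083, plus strand: ctgtctttcactTAACAgatatttattttt
Fzd1, 3′ UTR side of the peak, chr5:4755523-4755552, minus strand: ctcgccagccacTGACTtttgcaggcccct
The *Fzd5* peak shared 49 bases between the lists, and none of the words was found in them. The shared bases held 9 such words in *Axin1*, 8 in *Fzd7*, 4 in *Wnt10a* and 7 in *Fzd1*, so the word shown is 1 of several.

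The fold enrichment at these 13 peaks was compared with limma on the log2 scale, over all 6055 peaks found in all 4 lists. None of the 13 had an adjusted p under 0.05, and none of the 6055 had (0.0%). Without adjustment, 0 of the 13 and 208 of the 6055 (3.44%) had a p under 0.05. Across the 13 peaks, both GM lists lay above both 3d DM lists in 7 (21.8% over all peaks) and below them in 1 (9.13% over all peaks). The 7 were the peaks of *Axin1*, *Lrp5*, *Lrp6* and *Wnt10a*, and the rest all lay on *Apc*, so they are not 7 separate genes. The median log2 difference, 3d DM minus GM, was -0.35 over the 13 peaks and -0.11 over all.

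The *Axin1* peak (chr17:26142893-26188129, across exons) had a fold enrichment of 13.1 and 8.29 in GM and of 5.17 and 4.84 in 3d DM. GM lists lay above 3d DM lists, with a log2 difference of -1.06 ± 0.52 (SE; adjusted p = 0.996 from limma). This value rests on the choice of the highest line of each list, since the median of the lines gave a difference, GM minus 3d DM, of 0.13.

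The *Lrp6* peak over the stop codon (chr6:134450426-134453554) stood at 9.04 and 7.20 in GM and at 3.66 and 4.73 in 3d DM, which gave a log2 difference of -0.96 ± 0.47 (SE; adjusted p = 0.996 from limma). The *Lrp5* peak in coding sequence (chr19:3628296-3630345) stood at 8.62 and 4.41 in GM and at 4.37 and 2.78 in 3d DM. Here the lowest GM value and the highest 3d DM value nearly met.

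By the highest line of each list, *Fzd7* was the 1 peak in which both 3d DM lists lay above both GM lists. It stood at 6.29 and 5.38 in GM and at 8.36 and 7.28 in 3d DM, with a log2 difference of 0.42 ± 0.49 (SE; adjusted p = 0.996 from limma). The *Fzd1* peak stood at 4.69 and 8.22 in GM and at 6.31 and 6.12 in 3d DM, with the GM lists on either side of the 3d DM lists. This order too rests on the choice of the highest line. The 8.22 of GM replicate 2 came from a line within coding sequence, and its line over the stop codon stood at 4.50, under both 3d DM values. The *Fzd2* peak stood at 6.62 and 3.02 in GM and at 3.11 and 2.88 in 3d DM, so that GM replicate 1 stood apart.

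*Fzd5* had the highest mean fold enrichment of the 13 peaks, at 13.1 and 12.5 in GM and at 9.52 and 12.5 in 3d DM, while its mean RNA value per kb of exon was 16.2 in GM and 26.4 in 3d DM, under those of *Fzd1*, *Fzd2* and *Fzd7*. *Ctnnb1* had the lowest, at 1.90 and 2.22 in GM and at 1.86 and 2.54 in 3d DM. In both the states overlapped or met. The *Wnt10a* peak stood at 7.44 and 7.04 in GM and at 5.13 and 5.88 in 3d DM, which gave a log2 difference of -0.40 ± 0.48 (SE; adjusted p = 0.996 from limma), while its RNA was 8.20-fold higher in 3d DM. The 4 *Apc* peaks ranged from 3.44 to 8.39 in GM and from 2.57 to 8.63 in 3d DM.

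**Figure D5:**
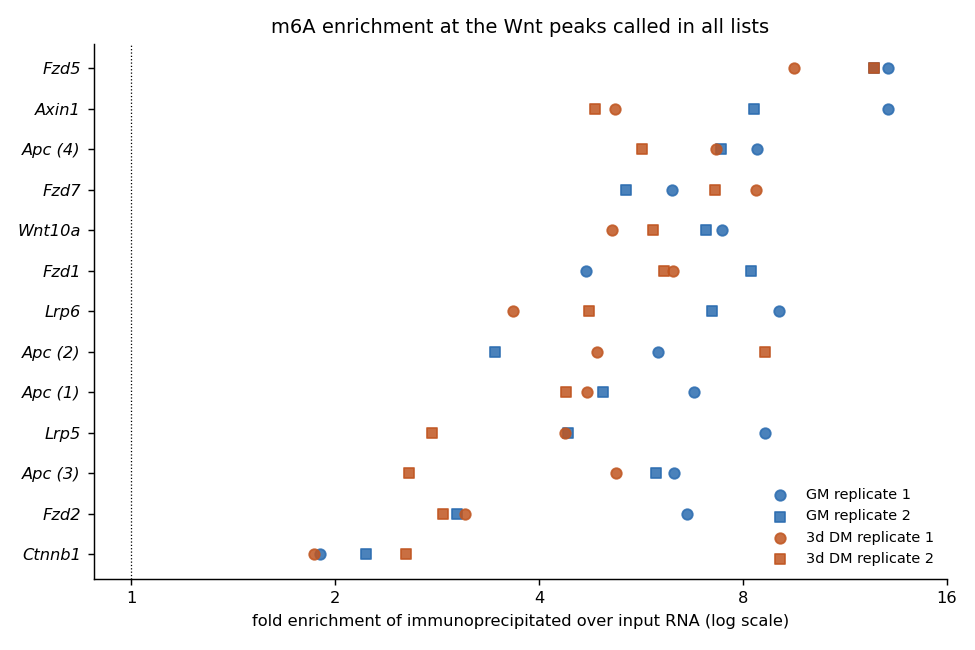
Fold enrichment of precipitated over input RNA (log axis) in each of the 4 lists at the 13 Wnt peaks found in all of them, ordered by mean. Each point is 1 list, the dotted line marks no enrichment, and the numbers after *Apc* order its 4 peaks from the transcript's start. GM points lie right of 3d DM points in *Axin1*, *Lrp6* and *Wnt10a* and left of them in *Fzd7*.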

How the data were processed

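Processed MeRIP-seq and RNA-seq files of C2C12 cells were used as deposited, with 2 input and 2 immunoprecipitated libraries each in GM and 3d DM, grouped by their labels. The authors isolated poly(A) RNA, made stranded libraries and aligned the reads with HISAT2 (v2.1.0) to mm10. Whether the strand was used in counting is not given in the sources used here. The deposited expression table holds a normalized signal per Entrez gene, which the authors named for trimmed-mean (TMM) scaling and made with edgeR. The columns share 1 total and low values show no steps of whole reads, so the depth is unknown and counting errors are not given. Values under 1e-06 were read as 0. Low values recur in pairs over genes of a state, so a library's value also depended on its replicate, with an unknown effect on the replicate spread. The peak lists, which the authors called with exomePeak for each library against its input, give for each peak its p-value and its fold enrichment, a ratio of precipitated to input RNA. The largest p-value in the deposited lists was 0.0107.

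Values were divided by median-of-ratios factors (1.17, 0.998, 0.776 and 1.10 for GM replicates 1 and 2 and 3d DM replicates 1 and 2). The 11406 genes that reached 2 cpm in 2 or more libraries were log2-transformed after adding 1 and fitted by state, without covariates, in limma 3.58.1 (R 4.3.3), with its trend option and p-values adjusted after Benjamini and Hochberg. A fold on this scale understates the change of low genes. The paper's methods ask for 3 libraries, which was an alternative. An exact permutation test of 2 libraries against 2 cannot give a p-value under 0.33. Peak lines of 1 gene and strand sharing at least 1 exonic bp were joined, and the highest fold of each list was tested with limma over the peaks in all 4 lists. Background shares of peak presence are over the 11255 tested genes with a symbol. Gene positions and exon lengths are from GENCODE release M21, and sequences from the GRCm38.p6 genome. The limma steps were tested on simulated data. All Wnt genes past the filter or with a peak, and all partners called, are named. The genes, the partner list and the tests were chosen with earlier results of these data known. Alternatives were other scalings, pseudocounts of 0.1 and 4, other filters, limma without the trend, a replicate block, stricter peaks, other joins, and each library left out. Scripts ran in Python 3.11.15 with pandas 2.3.3 and numpy 2.4.6, and matplotlib 3.10.9 drew the plots.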

Additional observations from a re-analysis of the deposited data

How the results depend on the processing

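No result changed direction with a call in either setting, while 12 uncalled RNA differences changed sign. Of 272 recomputed RNA differences of the Wnt genes, 248 kept their side of the threshold, 11 gained a call and 13 lost it, and for the called partners 116 kept it and 26 lost it. All 104 recomputed enrichment differences stayed uncalled. With 2 cpm in 3 libraries, the count of Wnt genes higher in GM was 0 in place of 2, since *Dkk2* and *Wnt7b* were then not tested. With each library left out in turn, the Wnt genes higher in GM ranged from 1 to 4 and those lower in GM from 3 to 10, all called genes from 610 to 5213 and called partners from 4 to 20. These fits leave 1 library in a state, which is assumed to vary like the other group. With a replicate block, 2 Wnt genes were higher and 8 lower in GM, with 3589 genes and 17 partners called, and enrichment calls stayed at 0. Deviations of equal replicate numbers correlated at 0.29 over 11406 genes, which are no independent replicates. With 2 pairs, and labels that give no pairing, whether equal numbers share more than a name cannot be told. The values as deposited gave 2 Wnt genes higher and 4 lower in GM. At a peak p of 1e-05 or lower, 5 Wnt genes in place of 11 had a peak in all 4 lists, and the share over all tested genes fell from 42.6% to 24.8%. With each list left out, Wnt genes with peaks in GM only ranged from 1 to 4 and in 3d DM only from 0 to 6, while the shares over all tested genes ranged from 4.63% to 10.1% and from 3.05% to 4.82%. Peak calling without read numbers and 2 libraries a state limit what can be detected.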
